A study of Mus musculus with 33 samples.

Results

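The CD surface molecules and integrins were the genes whose array symbol begins with Cd and a number or with Itga, Itgb or Itgx, apart from Cd69, Cd86, Cd79b, Cd3g, Cd14, Cd93, Cd68, Cd163 and Cd74. The platform carried 95 such genes, and 77 of them had a value on at least 1 array, out of 9672 genes measured in all. Of these 77, 40 had a value on all 33 arrays. The 18 without a value were Cd151, Cd1d2, Cd200r3, Cd207, Cd209c, Cd244a, Cd300lg, Cd36, Cd4, Cd40lg, Cd70, Cd80, Itga2, Itga3, Itga7, Itga9, Itgb1bp2 and Itgbl1, so the T helper marker Cd4 and the ligands Cd40lg, Cd70 and Cd80 are not described here.

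Spleen cells from 2-month-old female BALB/c mice were brought into single-cell suspension and cultured at 37 °C for 2, 4 or 8 h in 1 of 3 ways. The CpG ODN group received an equimolar mix of the oligodeoxynucleotides 1555 and 1466 at 1 µM. The control ODN group received an equimolar mix of the ODN 1612 and 1471 at 1 µM, which controls for effects of an ODN that do not depend on its sequence. The medium group received no ODN and controls for handling and culture. Each treatment had 4 arrays at 2 h, 4 arrays at 4 h and 3 arrays at 8 h, from 3 to 4 independent experiments by the study's design text. All groups shared the strain, the sex, the age, the culture medium and the reference RNA, and no group carried a genetic change. On each array the spleen cell RNA was read against a universal mouse reference RNA that itself contains RNA of B lymphocytes, T lymphocytes and macrophages. Each value below is therefore a log2 ratio of spleen cells over that reference for 1 probe, and values of different genes are not compared with each other.

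Unmethylated CpG DNA is recognised in endosomes by the receptor TLR9, which in the mouse is carried by B cells, dendritic cells and macrophages. Activated antigen-presenting cells are known to display more of the surface molecules that T cells read, such as CD40, CD80, CD86 and PD-L1 (Cd274). CD numbers name surface proteins defined by antibodies and cover receptors, adhesion molecules, complement regulators and tetraspanins with unrelated functions. Integrins are pairs of an alpha and a beta chain that bind matrix or other cells, and a beta chain can pair with several alpha chains. In leukocytes Itgb2 pairs with Itgal to form LFA-1, with Itgam to form Mac-1 and with Itgax to form p150,95, while Itga4 pairs with Itgb7 or Itgb1.

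The promoter sequences of 4 members are shown because 2 of them hold an E-box in this window and belong to genes that changed, and the other 2 belong to neighbouring copies of one gene that were measured separately. Of the genes with an E-box, Cd3eap was higher and Cd37 lower with CpG ODN than with control ODN at 8 h. Cd164, not shown, also holds an E-box and did not pass the test used below (-0.45 ± 0.36 log2 in that comparison). Each is the 250 bases before the RefSeq start (GRCm38.p6), 5′ to 3′ on the gene's own strand, and capitals mark a motif match. Cd3eap lies at chr7:19359484-19359733 on the minus strand and holds CACGTG from 218 to 213 bases before its start. Cd37 lies at chr7:45238840-45239089 on the minus strand and holds CACGTG from 228 to 223 bases before its start. Cd55 lies at chr1:130462745-130462994 and Cd55b at chr1:130423044-130423293, both on the minus strand.
Cd3eap: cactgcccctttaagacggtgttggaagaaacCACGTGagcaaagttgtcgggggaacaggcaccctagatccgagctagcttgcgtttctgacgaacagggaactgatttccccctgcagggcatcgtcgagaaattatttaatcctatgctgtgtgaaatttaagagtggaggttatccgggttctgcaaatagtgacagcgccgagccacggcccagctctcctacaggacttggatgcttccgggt
Cd37: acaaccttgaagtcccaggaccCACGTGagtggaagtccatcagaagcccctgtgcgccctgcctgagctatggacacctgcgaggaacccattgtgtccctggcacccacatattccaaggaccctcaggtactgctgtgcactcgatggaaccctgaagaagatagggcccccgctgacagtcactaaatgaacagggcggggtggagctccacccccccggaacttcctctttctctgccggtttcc
Cd55: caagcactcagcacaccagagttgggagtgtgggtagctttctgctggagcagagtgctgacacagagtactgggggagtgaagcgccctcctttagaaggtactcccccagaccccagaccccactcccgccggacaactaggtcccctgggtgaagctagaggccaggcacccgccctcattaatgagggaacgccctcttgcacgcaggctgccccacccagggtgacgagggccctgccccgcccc
Cd55b: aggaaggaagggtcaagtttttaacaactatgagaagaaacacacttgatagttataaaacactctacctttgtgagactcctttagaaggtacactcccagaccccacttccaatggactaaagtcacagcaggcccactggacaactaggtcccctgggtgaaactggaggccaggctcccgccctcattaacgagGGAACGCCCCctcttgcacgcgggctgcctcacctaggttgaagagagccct

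The longest run that the Cd55 and Cd55b windows share is 24 bases. Motifs were searched as letters on both strands in the 66 RefSeq windows that matched 59 members and in all 32851 windows of the same length. The E-box CACGTG, the site of MYC and of related factors, was in 3 of 66 member windows (4.55%) and in 6.02% of all windows. The ISRE core, the site of interferon-activated factors, was in 2 member windows (3.03%) and in 2.98% of all. The GAS motif TTCNNNGAA was in 4 member windows (6.06%) and in 7.02% of all. The NF-kB consensus was also in 4 (6.06%) and in 7.25% of all, among them Cd55b, whose match lies 52 to 43 bases before the start. No motif was more common in the members' windows than in all windows by more than a fraction of a percentage point, and a match is a run of letters, not a shown binding site.

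Between 7908 and 11129 probes were measured per array, and the array medians before centring ran from -0.085 to 0.024. The number of arrays sets the precision. Arrays correlated with each other at 0.679 to 0.983. The medium arrays 1 and 2 at 8 h and the CpG ODN array 2 at 4 h stood furthest from the rest, with array weights of 0.37, 0.28 and 0.36. Medium array 2 at 8 h was the low one for Cd79a at 1.42, for Cd180 at 0.33 and for Itga6 at -2.02, so results against medium at 8 h are also given without it. Several cell types stood above the reference. The mean of 12 B cell markers lay between 1.34 and 1.91 over all 8 h arrays and the mean of 6 T cell markers between 1.52 and 2.42. The mean of 8 erythroid markers lay between 1.82 and 2.30, that of 5 NK cell markers between 2.77 and 3.34 and that of 3 neutrophil and precursor markers between 0.46 and 2.29. The mean of 11 endothelial and stromal markers was below the reference on every 8 h array. Since the reference holds RNA of B and T lymphocytes, these ratios do not give the shares of the cell types.

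At 8 h, CpG ODN changed 13 of 77 members (16.9%) against the control ODN, where 10.0% of the 9494 genes tested were called. A gene is called where limma's adjusted p was below 0.05 over all genes tested. The costimulation receptor Cd40, the immune checkpoint ligand Cd200, the lipid-presenting molecule Cd1d1 and the RNA polymerase I subunit gene Cd3eap rose. The integrin chain Itgb3 was also higher than with control ODN, but not higher than in medium. Its means were 0.18 with CpG ODN, -0.50 with control ODN and 0.22 in medium. The complement regulator Cd55, the tetraspanins Cd37 and Cd63, the myeloid receptor Cd300c2, the T cell molecules Cd3e and Cd5 and both chains of LFA-1, Itgal and Itgb2, fell. Of the 13, only Cd3eap, Cd40, Cd55 and Cd300c2 were also called against medium. Higher calls were 5 of 77 members and 4.55% of all genes, and lower calls were 8 of 77 members and 5.45% of all genes. The median difference of the members was -0.37 log2 and that of all genes tested was -0.12 log2, and 59 of 77 members (76.6%) lay below 0, beside 61.3% of all genes.

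Against medium at 8 h, 10 of 76 members (13.2%) were called, where 11.8% of the 9478 genes tested were. Cd3eap, Cd40 and the hyaluronan receptor Cd44 rose (5.66% of all genes rose). Cd55, the T and NK cell molecule Cd7, the integrin chains Itgav and Itgb7, Cd300c2, the progenitor and endothelial sialomucin Cd34 and the tetraspanin Cd9 fell (6.11% of all genes fell). The members' median difference was -0.34 log2, beside -0.13 log2 over all genes. The members' shares of calls lie near the background in this comparison and somewhat above it in the comparison with the control ODN. Both comparisons use the same 3 CpG ODN arrays and are not independent. The balance of the directions moved with the scaling: with quantile normalization 66.1% of all called genes were higher against the control ODN, beside 45.5% with median centring, and the members called were 5 higher and 5 lower. Against medium those shares were 63% and 48.1%, and the members called were 3 higher and 4 lower. Without medium array 2, 7 members were called against medium, 2 higher and 5 lower. The count against the control ODN fell to 8 without control ODN array 1 or without CpG ODN array 1.

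**Figure D1:**
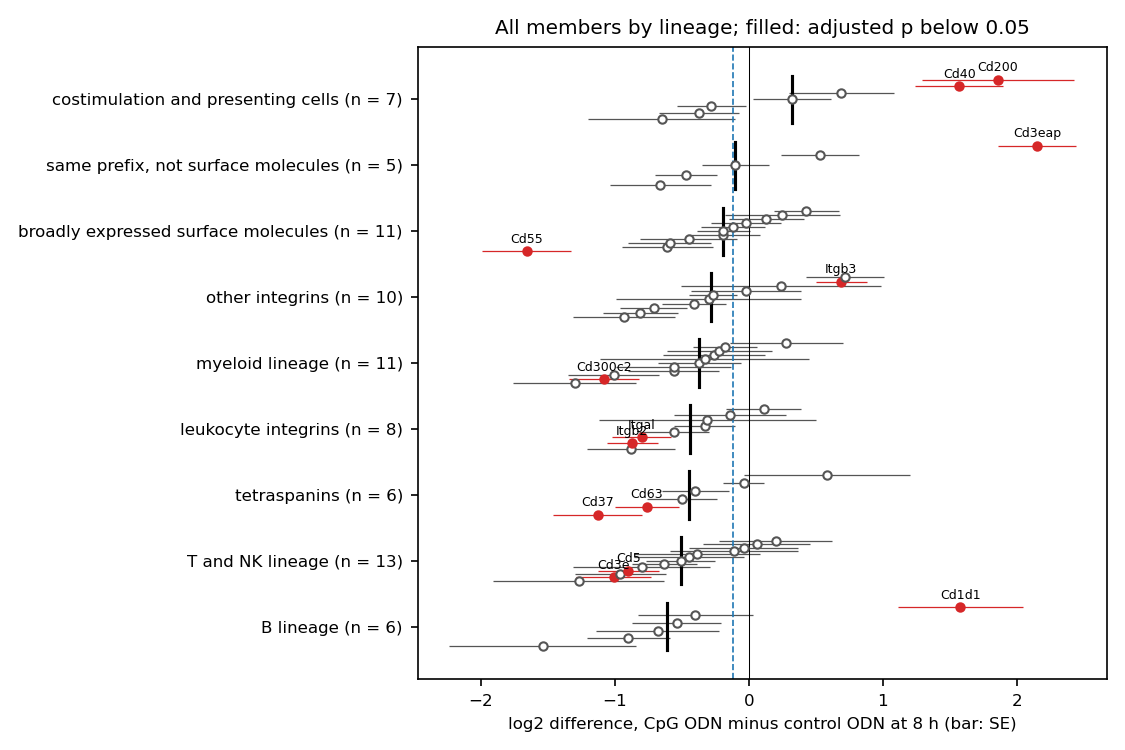
Each point is the log2 difference of 1 member between CpG ODN and control ODN at 8 h with its SE as a bar, in rows by lineage; filled points have an adjusted p below 0.05, black ticks mark the median of each lineage and the dashed line marks the median of all genes tested (-0.12). The costimulation row has a median of 0.32 and the B lineage, T and NK lineage, tetraspanin and leukocyte integrin rows have medians from -0.61 to -0.44.

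Costimulation molecules and molecules of presenting cells were the only one of the 9 groups with a median above 0 at 8 h. It was 0.32 log2 against the control ODN and 0.39 log2 against medium. The counts of all 9 groups stand beside 4.55% of all genes higher and 5.45% lower against the control ODN. Against medium those shares were 5.66% and 6.11%. The medians of all genes were -0.12 log2 and -0.13 log2 in the same order. Whether any group departs from these values was not tested. Of the 7 costimulation members, 2 rose against the control ODN and 1 rose against medium, and none fell. The signs of all 9 medians against the control ODN were the same with quantile normalization, but their sizes moved. The costimulation median was then 0.43 log2. That of the B lineage was -0.38 log2, of the T and NK lineage -0.34, of tetraspanins -0.26 and of leukocyte integrins -0.24. The median of all members was -0.19 log2 with that scaling, beside -0.05 log2 over all genes. Cd40, the receptor for T cell help on B cells and dendritic cells, read 2.13, 2.15 and 2.92 in medium, 1.99, 2.27 and 2.58 with control ODN and 3.50, 3.74 and 4.30 with CpG ODN. All 3 CpG ODN arrays lay above all 6 others. The rise was 1.57 ± 0.33 log2 (SE), or 2.96-fold, against the control ODN (adjusted p = 0.00173) and 1.45 ± 0.33 log2 against medium (adjusted p = 0.00317). It was called under each of the 14 alternatives run for each comparison, leaving out any 1 array included.

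Cd200, which restrains myeloid cells through its receptor Cd200r1, read 2.22, 0.95 and 1.95 in medium, 0.91, 1.45 and 1.24 with control ODN and 3.10, 2.48 and 3.61 with CpG ODN. The CpG ODN arrays were again above all others. Its difference was 1.86 ± 0.57 log2 against the control ODN (adjusted p = 0.0323) and 1.36 ± 0.57 log2 against medium (adjusted p = 0.127). Over the alternatives the first adjusted p ran from 0.00974 to 0.135, and the call was lost with array weights, without any 1 of the 3 control ODN arrays, and without CpG ODN array 1 or 3. Cd274 (PD-L1), the ligand of the inhibitory receptor PD-1, read 3.91, 3.52 and 4.64 with CpG ODN, between 3.19 and 3.47 with control ODN and 2.60, 3.85 and 3.55 in medium. With CpG ODN the values lay above the control ODN arrays and overlapped the medium arrays. The difference was 0.69 ± 0.39 log2 in each comparison and missed the threshold (adjusted p = 0.309 against the control ODN and 0.283 against medium). Cd83, a marker of mature dendritic cells, had values of 2.69, 2.50 and 3.53 with CpG ODN inside the spread of the controls, with a difference of -0.65 ± 0.55 log2 (adjusted p = 0.553). The SLAM family members Cd48 (0.32 log2, adjusted p = 0.599) and Cd84 (-0.37 log2, adjusted p = 0.54) and the B7 family member Cd276 (-0.28 log2, adjusted p = 0.616) were not called.

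**Figure D2:**
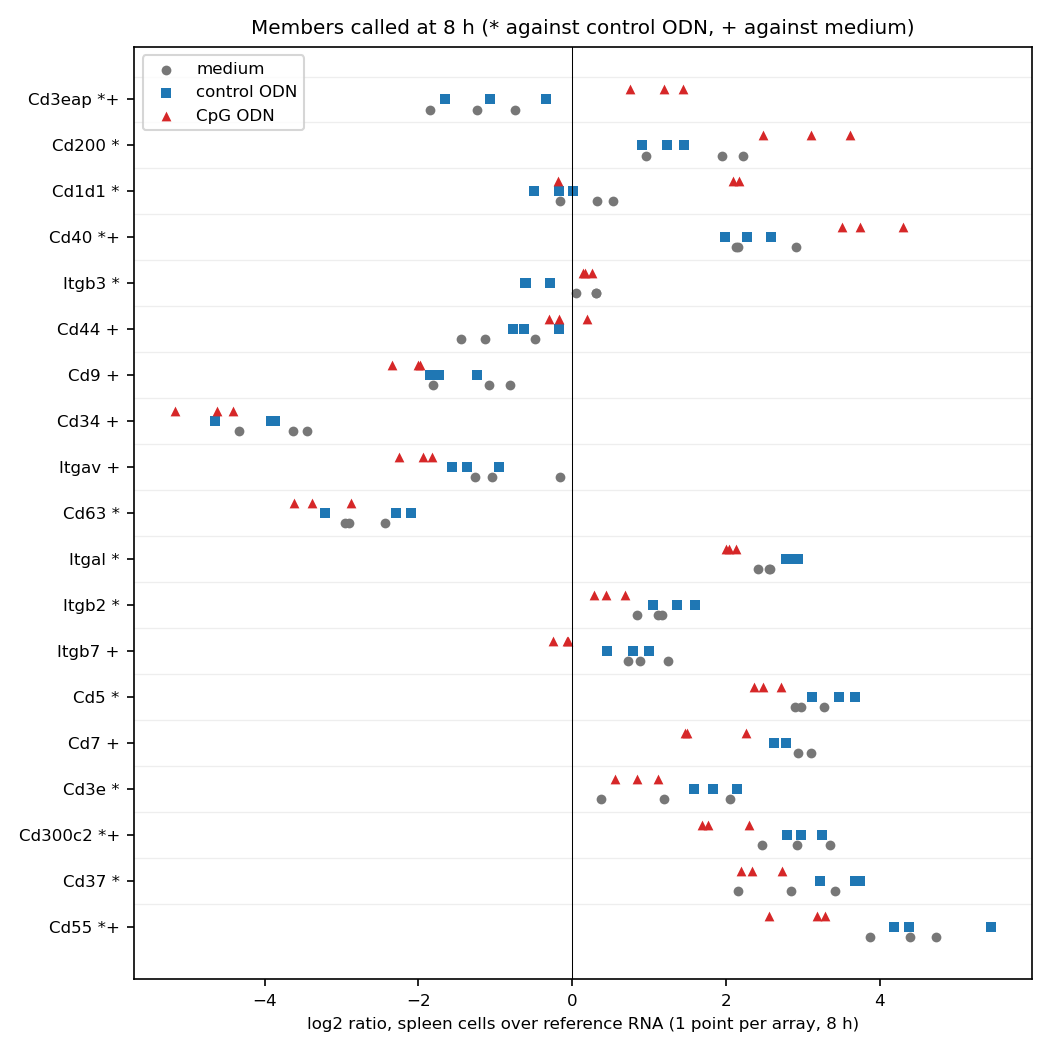
Each point is the log2 ratio of spleen cells over reference RNA on 1 array at 8 h for the members called against control ODN (*) or medium (+), with circles for medium, squares for control ODN and triangles for CpG ODN. The triangles of Cd3eap, Cd200 and Cd40 lie to the right of all other points in their rows, those of Cd55, Cd300c2, Itgal, Itgb2 and Itgb7 to the left, and 1 Cd1d1 triangle (-0.19) lies among the controls.

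Among the 6 B lineage members, 1 rose and none fell against the control ODN, and none was called against medium; the median was -0.61 log2 against the control ODN and -0.27 log2 against medium. Cd1d1, which presents lipids to NKT cells, read 2.16, -0.19 and 2.09 with CpG ODN, -0.18, 0.01 and -0.50 with control ODN and 0.53, -0.15 and 0.33 in medium. CpG ODN arrays 1 and 3 were high and array 2 lay among the controls. The difference was 1.58 ± 0.47 log2 against the control ODN (adjusted p = 0.0271) and 1.12 ± 0.47 log2 against medium (adjusted p = 0.123). The first call was lost with quantile normalization, when the fit held the compared groups alone, and without control ODN array 1 or 3 or CpG ODN array 1 or 3, with an adjusted p between 4.01e-04 and 0.162 over the alternatives. The other 5 were below the control ODN without a call. Cd79a, a signalling chain of the B cell receptor, read 4.38, 4.56 and 5.10 with CpG ODN against 6.44, 5.20 and 7.03 with control ODN, a difference of -1.54 ± 0.70 log2 (adjusted p = 0.186). Its medium arrays were 1.42 and 5.91 with 1 missing, the wide pair that holds medium array 2. Cd180, a Toll-like receptor relative on B cells, read 0.97, 1.20 and 1.07 with CpG ODN, below the control ODN values of 2.04, 1.55 and 2.35, with a difference of -0.90 ± 0.31 log2 (adjusted p = 0.0589). The inhibitory receptors Cd22 (-0.68 log2) and Cd72 (-0.40 log2) and the sialoglycoprotein Cd24a (-0.54 log2) had adjusted p of 0.424, 0.678 and 0.358. Beside these members stand the B cell markers outside the CD names. Their mean over 12 markers was 1.34 to 1.41 with CpG ODN, 1.70 to 1.91 with control ODN and 1.41 to 1.87 in medium, and 1 of 13 rose and 3 fell against the control ODN. The median difference of these 13 was -0.15 log2, beside -0.12 log2 over all genes. Below 0 lay 8 of 13, beside 61.3% of all genes. With quantile normalization the median was 0.03 log2 and 6 of 13 lay below 0, so a lower marker level depends on the scaling. Whether the marker level has a part in the B lineage values was not tested. In such mixed samples, fewer cells of a type and less RNA per cell cannot be told apart.

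Of the 13 T and NK lineage members, 2 fell against the control ODN and none rose, where 5.45% of all genes fell. The median was -0.51 log2, and 11 of 13 lay below 0, beside 61.3% of all genes. Cd3e, a chain of the T cell receptor complex, read 0.85, 0.56 and 1.12 with CpG ODN and 1.83, 1.58 and 2.14 with control ODN, with 1.19, 0.37 and 2.05 in medium. The CpG ODN arrays lay below all control ODN arrays and inside the wide medium range. The fall against the control ODN was -1.01 ± 0.28 log2 (adjusted p = 0.017), and against medium the difference was -0.36 log2 (adjusted p = 0.464). The call was lost without control ODN array 3 or CpG ODN array 2 (adjusted p from 0.00503 to 0.0959 over the alternatives). Cd5, a scavenger receptor family protein that dampens antigen receptor signals in T cells and B-1 cells, read 2.71, 2.48 and 2.36 with CpG ODN, 3.67, 3.47 and 3.12 with control ODN and 2.98, 2.90 and 3.27 in medium. All CpG ODN arrays were below all 6 others. Its fall was -0.90 ± 0.23 log2 against the control ODN (adjusted p = 0.00933) and the difference against medium was -0.53 log2 (adjusted p = 0.134). It lost its call with quantile normalization and when the fit held the compared groups alone (0.0068 to 0.106 over the alternatives).

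Against medium, 1 of 12 T and NK lineage members fell and none rose, with a median of -0.53 log2. Cd7, an immunoglobulin family molecule of T and NK cells, ranged from 1.46 to 2.26 over the 3 CpG ODN arrays and read 2.94 and 3.11 in medium and 2.62 and 2.79 with control ODN, with 1 medium and 1 control ODN array missing. The CpG ODN arrays lay below every measured control. The fall was -1.29 ± 0.34 log2 against medium (adjusted p = 0.0105) and the difference against the control ODN was -0.96 ± 0.34 log2 (adjusted p = 0.0678). Its call against medium was lost without CpG ODN array 2 and when the fit held the compared groups alone (0.00325 to 0.0784 over the alternatives). Cd3d, the partner of Cd3e in the receptor complex, had the largest difference of the lineage against the control ODN, -1.27 ± 0.64 log2, with an adjusted p of 0.243 and a medium range from 3.47 to 6.24. The co-receptor chains Cd8a (-0.63 log2, adjusted p = 0.102) and Cd8b1 (-0.39 log2, adjusted p = 0.715), the signalling chain Cd247 (-0.51 log2, adjusted p = 0.26) and the Cd5 relative Cd6 (-0.04 log2, adjusted p = 0.977) were not called. By limma, 0 of 9 T cell markers outside the CD names passed against the control ODN (2 had an unadjusted p below 0.05), and their median difference was 0.02 log2. For the 9 NK cell markers the count was likewise 0 (2 at an unadjusted p below 0.05), with a median of 0.17 log2. The mean of 6 T cell markers was 1.52 to 2.09 with CpG ODN, 1.59 to 2.42 with control ODN and 1.56 to 2.35 in medium, so the 3 ranges overlapped.

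Tetraspanins are membrane proteins with 4 transmembrane segments that organise other receptors; 2 of 6 fell against the control ODN and 1 of 6 against medium, and none rose, with medians of -0.45 log2 and -0.46 log2. Cd37, a leukocyte tetraspanin, read 2.19, 2.33 and 2.73 with CpG ODN, 3.74, 3.22 and 3.68 with control ODN and 2.15, 2.85 and 3.41 in medium. It was below all control ODN arrays and overlapped medium. The fall was -1.13 ± 0.33 log2 (adjusted p = 0.0262) and the difference against medium -0.39 log2 (adjusted p = 0.525). Its call was lost without control ODN array 1 or 3 or CpG ODN array 1 or 2 (0.0236 to 0.0929 over the alternatives). Cd63, a tetraspanin of lysosomes and secretory granules, read -3.38, -3.62 and -2.88 with CpG ODN and -2.29, -2.09 and -3.21 with control ODN, with -2.43, -2.95 and -2.90 in medium. Values with CpG ODN overlapped both other groups, with control ODN array 3 among the CpG ODN values. Against medium the difference was -0.53 ± 0.24 log2 (adjusted p = 0.167). The fall of -0.76 ± 0.24 log2 (adjusted p = 0.0419) was lost under 6 of 15 alternatives, namely quantile normalization, a fit of the compared groups alone, and without control ODN array 1 or 2 or CpG ODN array 1 or 2 (0.00271 to 0.345). Cd9, found on B cells, platelets and endothelium among others, read -2.01, -1.98 and -2.34 with CpG ODN and -1.81, -0.81 and -1.08 in medium. The groups did not overlap, and medium array 1 was close. The fall was -0.88 ± 0.26 log2 against medium (adjusted p = 0.024), with -0.50 log2 against the control ODN (adjusted p = 0.254). It was lost with quantile normalization, with only the compared groups, and without CpG ODN array 3 or medium array 2 or 3 (0.00307 to 0.155). Cd81, a subunit of the B cell co-receptor, differed by -0.04 ± 0.15 log2 (adjusted p = 0.928) and Cd53 by -0.40 ± 0.25 log2 (adjusted p = 0.387). Cd82 read 0.20 to 1.22 with CpG ODN and -1.03 to 1.08 with control ODN, and its difference was 0.58 ± 0.62 log2 (adjusted p = 0.671).

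Among the 11 members grouped as broadly expressed surface molecules, 1 fell and none rose against the control ODN. Against medium 1 rose and 2 fell. Of those 2 falls, 1 was that of Cd34, the progenitor and endothelial sialomucin, so the group name does not hold for every member. Cd55 (decay-accelerating factor), which protects cells from complement by breaking down C3 convertases, read 3.29, 2.56 and 3.18 with CpG ODN, 5.45, 4.18 and 4.38 with control ODN and 3.87, 4.39 and 4.73 in medium. All CpG ODN arrays were below all 6 others. The fall was -1.66 ± 0.33 log2, or 3.16-fold, against the control ODN (adjusted p = 9.39e-04) and -1.32 ± 0.33 log2, or 2.50-fold, against medium (adjusted p = 0.00728). Against the control ODN the call held under all 15 alternatives. Against medium it was lost when the fit held the compared groups alone and without CpG ODN array 2 or medium array 3 (9.97e-04 to 0.0631). Cd55b, the neighbouring copy of Cd55 on chromosome 1 whose promoter window is shown above, differed by 0.25 ± 0.43 log2 (adjusted p = 0.819). How far the Cd55 and Cd55b probes read each other's transcripts was not tested. The other complement regulators were not called: Cd59a differed by -0.61 ± 0.34 log2 (adjusted p = 0.303) and Cd46 by -0.12 ± 0.24 log2 (adjusted p = 0.861).

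Cd44, the hyaluronan receptor used as a mark of activated lymphocytes, read -0.31, 0.19 and -0.17 with CpG ODN, -0.49, -1.45 and -1.14 in medium and -0.17, -0.77 and -0.62 with control ODN. It was above all medium arrays and overlapped the control ODN. The rise was 0.93 ± 0.24 log2 against medium (adjusted p = 0.00886) and the difference against the control ODN was 0.43 ± 0.24 log2 (adjusted p = 0.306). Its call was lost when the fit held the compared groups alone and without CpG ODN array 2 or medium array 2 (9.74e-04 to 0.138). Since Cd44 fell with time in every treatment, the value at 8 h with CpG ODN is higher than in medium while lower than at 2 h. Cd34 read -4.62, -4.41 and -5.16 with CpG ODN and -3.63, -3.45 and -4.33 in medium, far below the reference in both. Its fall of -0.93 ± 0.31 log2 (adjusted p = 0.0451) was lost under 9 of 15 alternatives, among them quantile normalization, no centring, array weights, and without medium array 1 or 2 or CpG ODN array 1 or 3 (0.00869 to 0.419). Beside Cd34 stand the endothelial and stromal markers, whose 11-gene mean was -1.80 ± 0.06 with CpG ODN and -1.42 ± 0.37 in medium (SD, n = 3 each). None of the 12 was called by limma against medium, and 3 had an unadjusted p below 0.05. Below 0 lay 10 of 12, beside 61.6% of all genes. The part of these markers in the Cd34 value was not tested. Cd47, the don't-eat-me signal bound by SIRP alpha, differed by 0.13 ± 0.28 log2 (adjusted p = 0.869) on its fully measured probe, while a second probe gave 0.54 log2 against the control ODN (adjusted p = 0.315) and 1.02 log2 against medium (adjusted p = 0.0485). The probes of Cd47 thus disagree on a call against medium.

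Of 11 myeloid lineage members, 1 fell and none rose in each comparison at 8 h, with medians of -0.37 log2 against the control ODN and -0.36 log2 against medium. Cd300c2, an activating receptor of the CD300 family on myeloid cells, read 1.77, 1.69 and 2.29 with CpG ODN, 2.79, 2.97 and 3.24 with control ODN and 2.92, 2.46 and 3.35 in medium. The CpG ODN arrays lay below all 6 others. The fall was -1.08 ± 0.26 log2 against the control ODN (adjusted p = 0.00549, called under all 15 alternatives), and it fell against medium too (adjusted p = 0.00926). Against medium the call was lost when the fit held the compared groups alone and without CpG ODN array 2 or medium array 3 (2.47e-04 to 0.117). Its neighbour Cd300ld differed by -0.18 ± 0.24 log2 (adjusted p = 0.75).

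Cd5l, a macrophage-secreted scavenger protein, read 1.82, 1.09 and 1.66 with CpG ODN and 3.50, 2.39 and 2.57 with control ODN. The groups did not overlap, and the difference of -1.30 ± 0.46 log2, the largest of the lineage, missed the threshold (adjusted p = 0.075). The sialic acid receptor Cd33 read 1.01, 0.58 and 0.67 with CpG ODN and 1.94, 1.51 and 1.82 with control ODN, also without overlap (-1.01 ± 0.34 log2, adjusted p = 0.0585). The 4 Cd209 lectins differed by -0.56 log2 (Cd209a), -0.22 log2 (Cd209b), -0.37 log2 (Cd209d) and -0.56 log2 (Cd209e), none called. Cd200r1, the receptor of Cd200, differed by -0.26 ± 0.38 log2 (adjusted p = 0.779). Cd177, a neutrophil surface molecule, and Itgam varied more within groups than between them. In the control ODN group at 4 h, Cd177 ranged from 0.76 to 4.04 and Itgam from 1.02 to 3.45 over 4 arrays. The mean of 8 neutrophil and precursor markers on the same 4 arrays ranged from 1.92 to 3.63. At 8 h, 10 of 11 such markers lay below the control ODN, beside 61.3% of all genes. Their median was -0.59 log2, and none passed limma's test (1 had an unadjusted p below 0.05). Against medium S100a8 was the 1 called (-1.56 ± 0.34 log2, adjusted p = 0.00225). The part of these cells in the myeloid values was not tested. Monocyte and macrophage markers had 1 of 7 higher and 1 lower against the control ODN. Dendritic cell markers had 1 of 5 higher, the transcription factor gene Irf8 (1.27 ± 0.35 log2, adjusted p = 0.0173). Their 5-gene mean, which includes Irf8, was 1.44 to 1.54 with CpG ODN, above 0.97 to 1.29 in the controls. The median difference of the 5 from the control ODN was 0.23 log2, with 4 above 0, and no other was called.

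The leukocyte integrins fell in 2 of 8 members against the control ODN and in 1 of 8 against medium, with none higher and medians of -0.44 log2 and -0.45 log2. Itgal, the alpha chain of LFA-1, which binds ICAMs on other cells, read 2.00, 2.13 and 2.04 with CpG ODN, 2.78, 2.93 and 2.87 with control ODN and 2.41, 2.56 and 2.57 in medium. The 3 groups were each tight and did not overlap, with CpG ODN lowest, medium between and control ODN highest. The fall was -0.80 ± 0.22 log2 against the control ODN (adjusted p = 0.0143), and the difference against medium was -0.46 ± 0.22 log2 (adjusted p = 0.178). It lost its call with quantile normalization and without control ODN array 2 (0.0048 to 0.116). Itgb2, the beta chain shared by LFA-1, Mac-1 and p150,95, read 0.68, 0.29 and 0.44 with CpG ODN, 1.60, 1.05 and 1.36 with control ODN and 1.11, 1.16 and 0.84 in medium. All CpG ODN arrays were below all 6 others. The fall was -0.87 ± 0.19 log2 against the control ODN (adjusted p = 0.00305) and the difference against medium was -0.57 ± 0.19 log2 (adjusted p = 0.0523). When the fit held the compared groups alone, the adjusted p against the control ODN was 0.0589, the highest of its 15 alternatives, which began at 0.00173.

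Of the other 2 alpha chains that pair with Itgb2, Itgam differed by -0.31 ± 0.81 log2 (adjusted p = 0.889) and Itgax by -0.33 ± 0.23 log2 (adjusted p = 0.445). Both overlapped the controls, and the SE of Itgam is too wide to show a change of the size seen for Itgal. Itgb7, which pairs with Itga4 or Itgae for gut homing and retention, read -0.07, -0.25 and -0.06 with CpG ODN, 0.73, 0.89 and 1.24 in medium and 0.45, 1.00 and 0.80 with control ODN. All CpG ODN arrays were below all 6 others. The fall was -1.08 ± 0.33 log2 against medium (adjusted p = 0.0297) and the difference against the control ODN was -0.88 ± 0.33 log2 (adjusted p = 0.0939). Its call was lost with quantile normalization and without any 1 of the CpG ODN arrays or medium array 2 or 3 (0.00207 to 0.12). The alpha chain Itga4 differed by -0.56 ± 0.26 log2 against the control ODN (adjusted p = 0.19) and Itgae by 0.11 ± 0.28 log2 (adjusted p = 0.879), neither called.

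Among the 10 other integrins, 1 rose against the control ODN and 1 fell against medium. Itgb3, the beta chain of the platelet receptor and of the vitronectin receptor, read 0.25, 0.17 and 0.14 with CpG ODN, -0.62, -0.29 and -0.60 with control ODN and 0.31, 0.31 and 0.06 in medium. The CpG ODN arrays matched the medium arrays, and the control ODN arrays were the low ones. The rise was 0.69 ± 0.19 log2 against the control ODN (adjusted p = 0.0201), with -0.04 ± 0.19 log2 against medium (adjusted p = 0.931). The difference of control ODN from medium was -0.73 ± 0.19 log2 (unadjusted p = 7.70e-04, adjusted p = 0.999). The call was lost when the fit held the compared groups alone and without control ODN array 1 or 3 or CpG ODN array 1 or 2 (0.0155 to 0.0831). Itgav, the alpha chain of vitronectin receptors, read -1.94, -1.82 and -2.25 with CpG ODN, -1.04, -0.17 and -1.26 in medium and -1.36, -0.95 and -1.57 with control ODN on its fully measured probe. The CpG ODN arrays lay below all 6 others. That fall was -1.18 ± 0.25 log2 against medium (adjusted p = 0.00135) and the difference against the control ODN was -0.71 ± 0.25 log2 (adjusted p = 0.0662). The other 2 probes of Itgav gave 0.20 ± 0.22 log2 and -0.33 ± 0.35 log2 against medium, neither called, so the 3 probes disagree. With the mean of all probes the call was lost, as it was when the fit held the compared groups alone (5.83e-04 to 0.407).

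Itgb5 had the largest difference of these integrins against the control ODN, -0.93 ± 0.38 log2, without a call (adjusted p = 0.127) and with overlap through control ODN array 3. Itgb4, the partner of Itga6, read 1.87, 1.90 and 2.02 with CpG ODN and 1.31, 0.93 and 1.41 with control ODN, without overlap (0.72 ± 0.29 log2, adjusted p = 0.128). Itga6 itself read -1.45, -1.45 and -1.54 with CpG ODN and -0.93, -0.64 and -0.45 with control ODN, also without overlap and in the other direction (-0.81 ± 0.28 log2, adjusted p = 0.0624). Itgb1, the beta chain with the most partners, differed by -0.27 ± 0.18 log2 on its fully measured probe (adjusted p = 0.418) and by 0.71 ± 0.26 log2 on a second probe (adjusted p = 0.0817). Its probes differ in sign, and neither value was called. Platelet and megakaryocyte markers, which could carry Itgb3 and Itga2b, had 1 of 6 lower against the control ODN. Their 5-gene mean was 0.02 to 0.32 with CpG ODN and 0.21 to 0.31 with control ODN, and Itga2b differed by -0.41 ± 0.24 log2 (adjusted p = 0.32).

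Of the 5 genes that share the prefix and encode no surface molecule, 1 rose. Cd3eap, named for an association with the CD3 epsilon chain and known as a subunit of RNA polymerase I, which makes ribosomal RNA, read 0.75, 1.19 and 1.45 with CpG ODN, -1.06, -1.66 and -0.34 with control ODN and -0.74, -1.85 and -1.23 in medium. All 3 CpG ODN arrays were above 0 and all 6 others below it. The rise of 2.15 ± 0.29 log2, or 4.44-fold, against the control ODN (adjusted p = 4.48e-06) and of 2.41 ± 0.29 log2, or 5.30-fold, against medium (adjusted p = 6.33e-07) was the largest among the members, and both calls held under all 15 alternatives. By RefSeq, Cd3eap overlaps the DNA repair gene Ercc1, whose own probe differed by 0.31 ± 0.24 log2 against the control ODN (adjusted p = 0.515) and by 0.04 log2 against medium (adjusted p = 0.946). The adaptor Cd2ap (0.53 log2, adjusted p = 0.297), the splicing protein gene Cd2bp2 (-0.10 log2, adjusted p = 0.889), Itgb1bp1 (-0.47 log2, adjusted p = 0.229) and the centromere protein gene Itgb3bp (-0.66 log2, adjusted p = 0.317) were not called.

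**Figure D3:**
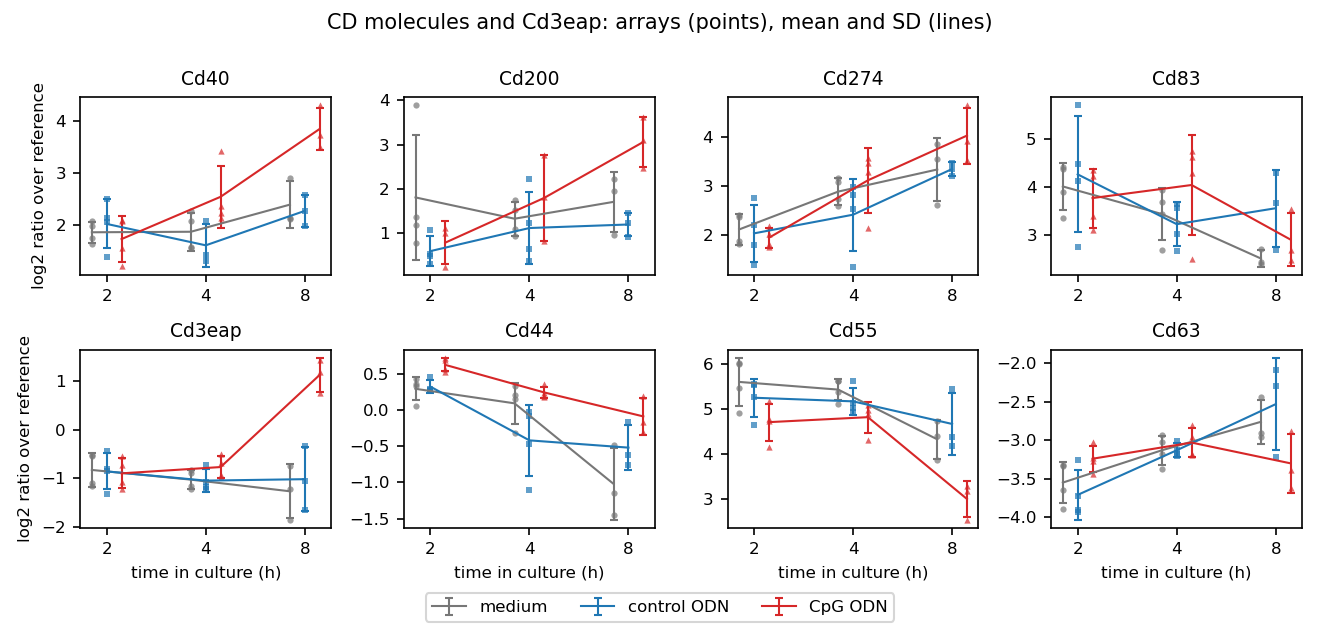
Log2 ratio over reference against time in culture for Cd40, Cd200, Cd274, Cd83, Cd3eap, Cd44, Cd55 and Cd63 in medium, control ODN and CpG ODN; small points are arrays and lines join group means with SD bars. Cd40 and Cd3eap separate with CpG ODN at 8 h, Cd274 rises in all 3 treatments, and Cd44 falls in all 3.

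At 2 and 4 h no member was called in any comparison of CpG ODN. Against the control ODN the count by limma was 0 of 75 at 2 h (4 at an unadjusted p below 0.05; 0.0430% of all genes called) and 0 of 77 at 4 h (4 at an unadjusted p below 0.05; 0.384% of all genes). Against medium it was 0 of 77 at 2 h (8 at an unadjusted p below 0.05; 0.0420% of all genes) and 0 of 77 at 4 h (8 at an unadjusted p below 0.05; 0.218% of all genes). With array weights, Cd248 and Cd8b1 were called against medium at 2 h and Itgb3 at 4 h, and Itgb3 was also called at 4 h without CpG ODN array 4. Cd40 averaged 2.55 ± 0.59 (SD, n = 4) with CpG ODN and 1.62 ± 0.41 (SD, n = 3) with control ODN at 4 h, without overlap, a difference of 0.93 ± 0.31 log2 that was not called (unadjusted p = 0.00528). At 2 h its means were 1.74 ± 0.44 with CpG ODN and 2.03 ± 0.47 with control ODN (SD, n = 4 each), which overlapped. Cd44 at 4 h was 0.24 ± 0.08 with CpG ODN and -0.42 ± 0.49 with control ODN (SD, n = 4 each), without overlap (0.66 ± 0.21 log2, adjusted p = 0.458). Itgb3 at 4 h was 0.71 ± 0.17 log2 above medium (adjusted p = 0.083).

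The control ODN called no member against medium at any time, and no gene at all. The counts by limma were 0 of 75 members at 2 h (1 at an unadjusted p below 0.05), 0 of 77 at 4 h (3) and 0 of 76 at 8 h (6), with 0% of all genes called at each time, and leaving out any 1 array of the compared groups kept 0 members. The 6 at 8 h were Cd79a (2.56 log2), Cd37 (0.74), Cd180 (0.67), Cd3e (0.64) and Cd44 (0.50), which were higher with control ODN, and Itgb3 (-0.73), which was lower. Of these, Cd3e, Cd37 and Itgb3 are members whose CpG ODN call was made against the control ODN and not against medium, so the level of the control ODN arrays enters those calls. Cd5, Itgal, Itgb2, Cd63, Cd1d1 and Cd200 were likewise called only against the control ODN. Their control ODN differences from medium were 0.37, 0.34, 0.30, 0.23, -0.46 and -0.51 log2 in that order, none called. For Itgal all control ODN arrays lay above all medium arrays.

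The change of the CpG ODN difference between times was tested directly. Between 8 h and 2 h it was called for 3 of 75 members, beside 3.26% of all genes. The difference of Cd3eap from the control ODN was 2.19 ± 0.39 log2 larger at 8 h (adjusted p = 5.23e-04), that of Cd40 1.85 ± 0.44 log2 larger (adjusted p = 0.011), and that of Cd63 changed by -1.23 ± 0.32 log2 (adjusted p = 0.026). Cd63 was 0.47 ± 0.21 log2 above the control ODN at 2 h (adjusted p = 1) and below it at 8 h. Leaving out 1 array gave between 2 and 5 such members. From 2 to 8 h, Cd63 rose by 1.17 log2 with control ODN and by 0.79 log2 in medium, both called. With CpG ODN its means were -3.24 at 2 h and -3.30 at 8 h. Between 4 h and 2 h limma called 0 of 75, beside 0.0108% of all genes, and the count was also 0 without any 1 array. For the other members called at 8 h, a difference from the earlier times was not shown.

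**Figure D4:**
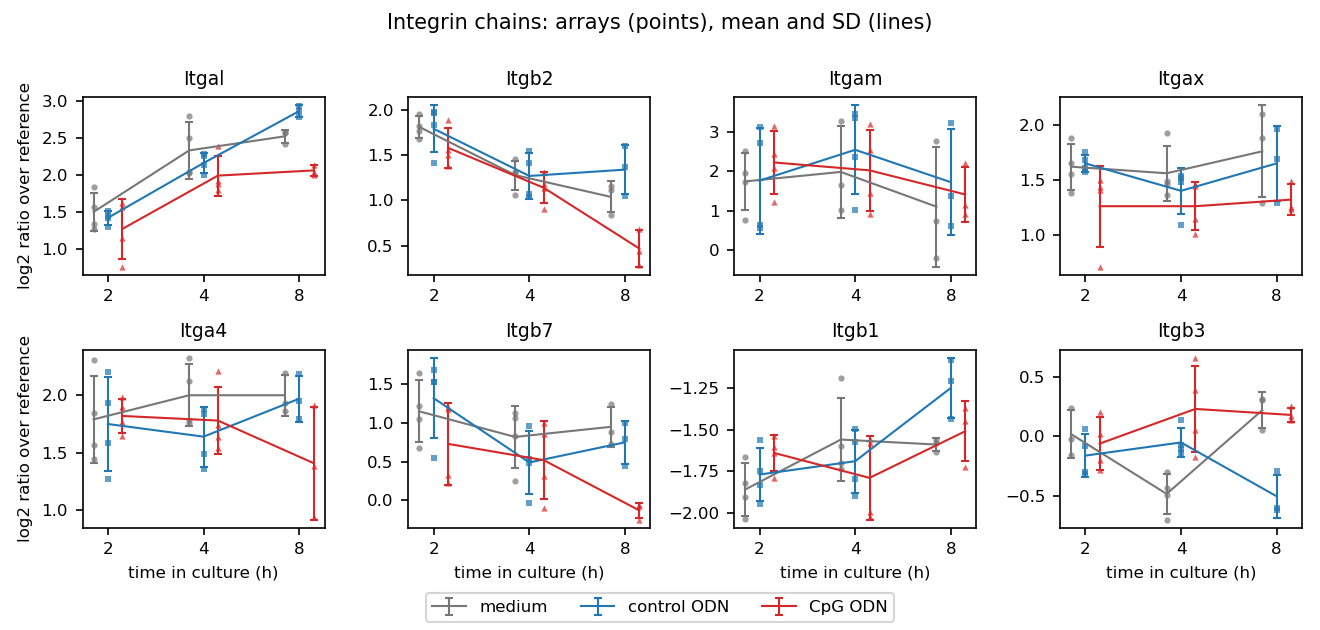
Log2 ratio over reference against time in culture for Itgal, Itgb2, Itgam, Itgax, Itga4, Itgb7, Itgb1 and Itgb3 in medium, control ODN and CpG ODN; small points are arrays and lines join group means with SD bars. Itgal rises from 2 to 8 h in all 3 treatments and ends lowest with CpG ODN, Itgb2 is lower at 8 h than at 2 h in each, and the Itgam bars are wide throughout.

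Members were also called between times in culture. Whether time or CpG ODN changed more members was not tested. In medium, 15 of 76 members (19.7%) differed between 8 and 2 h, 9 higher and 6 lower, beside 14.6% of all genes. The integrin chain Itgb6 (2.35 ± 0.65 log2, adjusted p = 0.0134), Cd3d (2.01 ± 0.64 log2, adjusted p = 0.032), Cd200r1 (1.38 ± 0.35 log2, adjusted p = 0.0074), Cd274 (1.23 ± 0.36 log2, adjusted p = 0.0215) and Itgal (1.02 ± 0.20 log2, adjusted p = 8.91e-04) rose most. Cd83 (-1.49 ± 0.51 log2, adjusted p = 0.0487), Cd44 (-1.31 ± 0.22 log2, adjusted p = 1.68e-04), Cd55 (-1.27 ± 0.31 log2, adjusted p = 0.00566), Cd180 (-1.15 ± 0.29 log2, adjusted p = 0.00623) and Itgb2 (-0.77 ± 0.18 log2, adjusted p = 0.00444) fell most. The count fell to 9 without medium array 4 at 2 h, to 8 without medium array 2 at 8 h and to 7 without medium array 3 at 8 h. Itgal and Cd44 kept their calls under all 15 alternatives. Cd83 lost its call without any 1 of 6 arrays (0.0114 to 0.122), Cd274 with quantile normalization, with only the compared groups and without medium arrays 2 or 4 at 2 h or 2 or 3 at 8 h (0.00238 to 0.134), and Cd3d without medium array 4 at 2 h or 2 or 3 at 8 h or with only the compared groups (0.00168 to 0.319). Without medium array 2 at 8 h the calls of Cd180 and Cd200r1 were also lost, and without medium array 3 that of Itgb6.

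With control ODN, 13 of 75 members (17.3%) differed between 8 and 2 h, 12 higher and 1 lower, beside 10.1% of all genes; the count was 8 without control ODN array 4 at 2 h, 6 without array 2 at 8 h, 5 without array 3 at 8 h and 7 without the 4 early arrays. With CpG ODN, 27 of 77 (35.1%) differed, 12 higher and 15 lower, beside 16.6% of all genes, and 15 did without CpG ODN array 3 at 8 h. Cd200 (2.27 ± 0.57 log2), Cd40 (adjusted p = 1.06e-05), Cd274 (2.09 ± 0.36 log2) and Cd3eap (2.03 ± 0.27 log2) rose most with CpG ODN, together with Itgb6 (2.03 ± 0.65 log2). Cd55 (-1.70 ± 0.31 log2), the complement regulator Cd59a (-1.63 ± 0.32), Cd24a (-1.42 ± 0.31), Itgb5 (-1.34 ± 0.35) and Cd7 (-1.33 ± 0.28) fell most. Cd274 changed by 1.23 log2 in medium, 1.30 log2 with control ODN and 2.09 log2 with CpG ODN, each called. Itgal changed by 1.02, 1.44 and 0.78 log2 and Itgb6 by 2.35, 2.48 and 2.03 log2 in the same order. Cd84 changed by 0.96, 1.02 and 0.86 log2, and Cd44 by -1.31, -0.84 and -0.72 log2. These 5 members moved in every treatment. Itgb2 moved the other way from its partner Itgal, by -0.77 log2 in medium and -1.11 log2 with CpG ODN. With control ODN its change of -0.46 log2 was not called.

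Of the pairs of members that bind each other, both sides were called only for Itgal with Itgb2 against the control ODN at 8 h. For Cd200 (1.86 log2) and Cd200r1 (-0.26 log2) the ligand was called and the receptor was not. Cd40 rose, and its ligand Cd40lg had no value. Cd48 (0.32 ± 0.29 log2) and its receptor Cd2 (-0.80 ± 0.51 log2) were not called, nor were the costimulatory receptors Cd28 (0.20 ± 0.42 log2, 2 arrays in each group) and Cd27 (-0.45 ± 0.41 log2), whose ligands Cd80 and Cd70 had no value. Several members lie next to each other in the RefSeq gene order. Cd5 fell and its neighbour Cd6 differed by -0.04 log2, Cd300c2 fell and Cd300ld differed by -0.18 log2, and Cd55 fell and Cd55b differed by 0.25 log2. Cd3e and Cd3d lay at -1.01 and -1.27 log2, the second without a call, and Itgam and Itgax at -0.31 and -0.33 log2, neither called. Cd1d1 and Cd5l, with 2 genes between them on chromosome 3, lay at 1.58 and -1.30 log2, the second without a call.

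Genes that work with the members were read from 4 lists at 8 h against the control ODN. The counts of these lists and of the marker lists stand beside 4.55% of all genes higher and 5.45% lower. Whether any list departs from those shares was not tested. Among 30 ligands, activators and adaptors of integrins, 5 fell and none rose, with a median of -0.28 log2, and with quantile normalization 1 fell. Rasgrp2, which activates Rap1 upstream of integrins, fell by -1.64 ± 0.36 log2 (adjusted p = 0.00252), the guanine exchange factor gene Cyth1 by -1.05 ± 0.31 log2 (adjusted p = 0.027), and Vcam1, the ligand of Itga4 with Itgb1, by -1.01 ± 0.24 log2 (adjusted p = 0.00567). Of 26 costimulation partners without a CD symbol, 3 rose and 1 fell, with a median of -0.04 log2. The TIM-3 ligand Lgals9 rose by 2.55 ± 0.20 log2 (adjusted p = 2.15e-10) and the 4-1BB ligand Tnfsf9 by 1.10 ± 0.33 log2 (adjusted p = 0.0321), and Sirpa, the receptor of Cd47, fell by -1.29 ± 0.23 log2 (adjusted p = 1.88e-04). Of 20 genes of B cell receptor signalling, 1 rose and 4 fell, with a median of -0.28 log2. The phosphatase gene Inpp5d fell by -1.57 ± 0.29 log2 (adjusted p = 4.33e-04) and the complement receptor Cr2 by -1.14 ± 0.29 log2 (adjusted p = 0.0108), while the PI3-kinase adaptor Pik3ap1 rose by 1.32 ± 0.29 log2 (adjusted p = 0.00231). Of 17 genes of T cell receptor signalling, 1 rose and 1 fell, with a median of 0.05 log2, namely the adaptor Dok2 (1.20 ± 0.22 log2, adjusted p = 2.64e-04) and the phosphatase gene Ptpn22 (-1.17 ± 0.30 log2, adjusted p = 0.011). Against medium the same lists had 1 higher and 2 lower of 29, 2 and 1 of 26, 2 and 2 of 20, and 1 and 2 of 17. Of all genes, 5.66% were higher and 6.11% lower in that comparison. Erythroid markers, the remaining marker list, had 1 of 9 lower and a median of -0.44 log2 against the control ODN.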

How the data were processed

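Two-colour arrays compared spleen cell RNA (Cy5) with a universal mouse reference RNA (Cy3) without dye swaps, per the labels. The authors deposited 1 log ratio of Cy5 over Cy3 per probe and array, here read as log2 from its range (-6.51 to 8.54), since the labels do not give the base, and every size rests on that reading. How the authors corrected background, filtered spots and normalized the arrays is, for these arrays, not given in the sources used here. Of 16720 probes, 14656 had 1 gene symbol in GEO's platform annotation, which can be old, and 11303 were measured. Each array was centred on its median. Each gene was represented by its probe with the fewest missing values, and 3 members had several measured probes. Differences were tested with limma 3.58.1 (R 4.3.3): group means over all 9 groups, moderated variance (median residual SD 0.350, prior degrees of freedom 5.75), Benjamini-Hochberg adjustment over all genes and calls at an adjusted p below 0.05. A gene entered a comparison with at least 2 measured arrays in each group, and missing values were not imputed. The pipeline was tested on simulated data. Figures used Python 3.11.15 and matplotlib 3.10.9.

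Nothing in the labels used here ties an array to one animal, so p-values measure the spread between these samples. Whether equal repeat numbers mark a shared experiment is not stated in the labels. Of 9 pairs of groups, 1 had every same-number correlation above 0.1 (control ODN with medium at 8 h). The block left the count of members called at 0 in that pair. The other pairs did not reach that bar throughout, so the main fit has no block. This choice matters: with the block more members were called with CpG ODN at 8 h against both controls, as given in the last section. The 4 early arrays are those with an experiment number below 70000 in the labels, and none is at 8 h. Alternatives were quantile normalization, no centring, genes on all 33 arrays, all probes, the mean of a gene's probes, only the compared groups, array weights, a replicate block, and leaving out the early arrays or each array in turn.

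Members, lineages, lists and tests were chosen with earlier results of these data known. Named were all members called with CpG ODN, the largest difference of each lineage at 8 h, the 5 largest rises and falls over time in medium, members that bind each other and up to 3 called genes per partner list; others were named after their values were seen. Promoters came from RefSeq (GRCm38.p6) by symbol.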

Additional observations from a re-analysis of the deposited data

Results flagged for a closer look

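The change of the CpG ODN difference from the control ODN between 2 and 8 h passed the test for Cd3eap (2.19 log2), Cd40 (1.85 log2) and Cd63 (-1.23 log2). In the main fit the difference at 8 h thus departs from that at 2 h for these 3 members. Without 1 array the count ran from 2 to 5. For Cd63 the control ODN values rose over that time by 1.17 log2, while the CpG ODN means were -3.24 and -3.30.

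In 10 of 210 groups of 4 values, 1 array stood apart from the other 3, where chance flags about 1 in 20 groups. Cd1d1 was 0.99 on array 1 in medium at 2 h, with the others between -0.10 and 0.03. In control ODN at 2 h, Cd44 was 0.45 on array 1 (others 0.26 to 0.29), Cd48 was 1.96 on array 2 (others 2.49 to 2.58) and Itgb7 was 0.55 on array 2 (others 1.53 to 1.69). In control ODN at 4 h, Cd27 was 0.32 on array 3 (others 0.52 to 0.55), Itgax was 1.09 on array 3 (others 1.48 to 1.53) and Cd28 was 0.24 on array 4 (others -0.75 to -0.63). With CpG ODN, Itgax was 0.71 on array 2 at 2 h (lowest of the others 1.41), Cd47 was -0.65 on array 2 at 4 h (others 0.31 to 0.40) and Itgb6 was 1.09 on array 3 at 4 h (others 2.85 to 3.08).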

How the results depend on the processing

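No result changed sign in a called value under any alternative. At 8 h against the control ODN the count of members called was 13, and it was 10 with quantile normalization, 18 with array weights, 22 with the replicate block (6 higher and 16 lower, the 13 among them, with Cd180, Cd33, Cd5l, Cd7, Itga6, Itgav, Itgb4, Itgb5 and Itgb7 added) and 8 to 13 without 1 array. At 8 h against medium it was 10, and it was 3 when the fit held the compared groups alone, 20 with array weights, 15 with the replicate block (Cd1d1, Cd59a, Itgb1bp1, Itgb2 and Itgb4 added) and 6 to 14 without 1 array. Against medium, array weights called 2 members at 2 h and 1 at 4 h, and leaving out 1 array called 0 to 1 at 4 h. For 8 h against 2 h, medium had 15 (5 with only the compared groups, 7 to 15 without 1 array), control ODN 13 (6 with quantile normalization, 8 with genes on all 33 arrays, 6 with only the compared groups, 7 without the 4 early arrays, 5 to 12 without 1 array) and CpG ODN 27 (15 to 26 without 1 array). The change of the CpG ODN difference from 2 to 8 h had 3, 6 with the replicate block and 2 to 5 without 1 array. A member not called without the block is therefore not shown to be unaffected. Same-number correlations were 0.48 to 0.65 for control ODN with medium at 8 h, -0.06 to 0.51 for CpG ODN with control ODN and -0.09 to 0.61 for CpG ODN with medium. The block could not be fitted for comparisons between times within 1 treatment, since numbers do not carry over between times. Only 3 or 4 arrays a group limit which differences can be called.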
